A study of Mus musculus with 18 samples.

Results

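Rag1, Rag2 and Dntt are the lymphoid genes of V(D)J recombination, the reaction that assembles antigen receptor genes in developing T and B cells. They were taken by symbol and are 3 of the 18329 genes in the table of acute libraries and of the 18953 genes in the table of survival libraries. All 3 were among the 17773 genes listed in both tables and passed the filter on low values in each.

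Rag1 and Rag2 encode the recombinase that binds the recombination signals beside V, D and J segments and cuts the DNA there. Rag1 carries the active site, and Rag2 is its essential partner, which reads a histone mark of active chromatin. Dntt encodes terminal deoxynucleotidyl transferase, which adds untemplated bases at the cut ends before non-homologous end joining closes them. The genes are used in immature thymocytes and B-cell progenitors, and T-cell acute lymphoblastic leukemia (T-ALL), a cancer of immature T cells, often keeps them on.

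RNA was sequenced from leukemic spleens of C57BL/6 mice that had been sub-lethally irradiated and injected intravenously with T-ALL cells carrying a conditional knockout of Acly, the gene of the enzyme ATP citrate lyase. In the acute experiment, overtly leukemic mice were treated and their spleens were collected 48 h later, giving 4 KO acute libraries (tamoxifen, 3 mg per mouse in corn oil) and 4 WT acute libraries (corn oil only). In the survival experiment, mice were given the same tamoxifen or corn oil 48 h after the transplant and sampled at the humane endpoint, giving 3 KO second wave, 3 KO first wave and 4 WT survival libraries. The WT libraries thus came from the conditional leukemia without tamoxifen, so Acly deletion and tamoxifen cannot be told apart. The labels do not define the waves, name the Cre that tamoxifen acts on, or say whether each library is a mouse of its own. The p-values therefore reflect only how much these libraries vary, which may be technical. The design text gives 5 samples per genotype, and the 10 KO and 8 WT libraries listed were used.

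The values are normalized counts, gene counts divided by a size factor per library, and each library was estimated to hold 6.08 to 12.7 M reads. Acly, the check of the labels, averaged 733 ± 85.1 in KO acute against 1256 ± 122 in WT acute (SD, n = 4 each), and no KO library overlapped the WT libraries of its experiment. Its log2 fold change was -0.78 in KO acute (limma adjusted p = 0.00266), -1.56 in the second wave (limma adjusted p = 0.00155) and -1.22 in the first wave (limma adjusted p = 0.0562). The T-cell markers were present throughout, with 10 of 10 listed markers above 0 in every library. Some libraries stood apart. Among KO acute libraries, replicates 1 and 2 had 4.8% and 5.27% of their counts in mitochondrially encoded genes, against 3.5% to 3.69% in WT acute, and their 8 neutrophil markers summed to 3552 and 4293, against 707 to 1595 in WT acute. Replicates 3 and 4 of KO acute had 2.35% and 2.70% mitochondrial counts and neutrophil sums of 1937 and 1418. In the survival experiment, WT replicates 1 and 2 had neutrophil sums of 1621 and 923, against 165 and 224 in WT replicates 3 and 4. Results that rest on these libraries are given with and without them.

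On GRCm38, in the GENCODE annotation, Rag1 (ENSMUSG00000061311.6) lies on the minus strand of chromosome 2 from 101638282 to 101649501 with 1 transcript of 6608 bases. Rag2 (ENSMUSG00000032864.4) lies on the plus strand of chromosome 2 from 101624718 to 101632529, and its longest coding transcript has 3424 bases. The 3′ ends of both genes face each other across 5752 bases. Dntt (ENSMUSG00000025014.13) lies on the plus strand of chromosome 19 from 41029275 to 41059525, with a longest coding transcript of 2130 bases. A longer gene, B230118H07Rik, runs through the Rag locus on the minus strand from 101560781 to 101649532. Its exons share 80 bases with Rag1 on the same strand and 208 bases with Rag2 on the opposite strand. A small part of the Rag1 and Rag2 reads therefore cannot be assigned with certainty. B230118H07Rik itself averaged only 181 ± 87.1 in KO acute and 235 ± 44.7 in WT acute (normalized count, SD, n = 4 each). The part of its value that came from shared bases was not tested, and it need not be small.

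The 250 bases before each start are shown because Rag1 and Rag2 moved together between libraries although they start from separate promoters on opposite strands. The sequences are from RefSeq on GRCm38.p6, at chr2:101649533-101649782 (minus strand) for Rag1, chr2:101624462-101624711 (plus strand) for Rag2 and chr19:41029025-41029274 (plus strand) for Dntt. They are written 5′ to 3′ along the gene's own strand, with matches to the searched motifs in capitals. Distances are counted from the RefSeq start, which lies 31 bases before the GENCODE start given above for Rag1, 6 bases before it for Rag2 and at the same base for Dntt.
Rag1 promoter: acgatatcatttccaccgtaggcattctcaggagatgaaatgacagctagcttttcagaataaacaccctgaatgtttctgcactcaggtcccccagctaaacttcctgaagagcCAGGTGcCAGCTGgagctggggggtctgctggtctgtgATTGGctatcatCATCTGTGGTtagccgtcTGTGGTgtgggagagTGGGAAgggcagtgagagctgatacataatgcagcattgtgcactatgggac
Rag2 promoter: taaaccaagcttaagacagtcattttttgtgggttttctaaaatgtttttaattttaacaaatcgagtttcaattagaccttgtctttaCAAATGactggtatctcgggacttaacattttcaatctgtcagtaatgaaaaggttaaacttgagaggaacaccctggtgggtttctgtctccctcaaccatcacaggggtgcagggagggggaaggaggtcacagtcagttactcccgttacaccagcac
Dntt promoter: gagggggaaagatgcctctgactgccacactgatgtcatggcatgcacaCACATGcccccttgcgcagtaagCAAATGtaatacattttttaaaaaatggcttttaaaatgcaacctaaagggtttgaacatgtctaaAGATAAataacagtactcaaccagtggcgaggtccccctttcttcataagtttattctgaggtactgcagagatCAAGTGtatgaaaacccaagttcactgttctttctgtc
Both strands were searched for 5 motifs: the E box CANNTG, the CCAAT box CCAAT, the RUNX motif TGTGGT, the Ikaros motif TGGGAA and the GATA motif AGATAA. The Rag1 window held 3 E boxes, 1 CCAAT box (read as ATTGG), 2 RUNX motifs and 1 Ikaros motif, and the E box 85 bases before its start overlaps a RUNX motif. The Rag2 window held 1 E box, 161 bases before the start, and none of the other motifs. The Dntt window held 3 E boxes and 1 GATA motif. Of 32841 mouse promoters of the same length, 66.2% held an E box, 33.9% a CCAAT box, 14.0% a RUNX motif, 21.6% an Ikaros motif and 9.99% a GATA motif. The windows had a GC content of 50.8% for Rag1, 41.2% for Rag2 and 41.6% for Dntt, against a mean of 53.2% over all promoters.

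By normalized count, which grows with transcript length, Rag1 was among the most abundant transcripts of these spleens. It ranked between 10 and 29 of all genes by normalized count in KO acute libraries and between 8 and 14 in WT acute libraries. In the survival experiment it ranked between 15 and 32 in the second wave, between 5 and 12 in the first wave and between 8 and 84 in WT survival. Ranked by count per kb of transcript, Rag1 stood lower, at 55 to 121 in KO acute and 49 to 85 in WT acute. Those ranks were 83 to 161 in the second wave, 42 to 70 in the first wave and 49 to 278 in WT survival. Per kb of the longest coding transcript, KO acute libraries averaged 2366 ± 484 for Rag1, 1539 ± 217 for Dntt and 279 ± 65.5 for Rag2, and WT acute libraries averaged 3628 ± 800, 2133 ± 204 and 470 ± 94.0 for the same genes in the same order (normalized count per kb, SD, n = 4 each). The order was therefore Rag1, Dntt, Rag2 on both sides, and the Rag2 level lay beyond the spread of the other genes. Between Rag1 and Dntt the ranges of mean ± SD did not meet in either acute group. Values of different libraries did cross, with Rag1 at 1738 in KO acute replicate 2 and Dntt at 1857 in KO acute replicate 3. Within a library, the ratio of Rag1 to Dntt per kb was 1.24 to 1.71 in KO acute and 1.14 to 2.30 in WT acute. That ratio was 0.83 to 1.63 in WT survival, and the 0.83 was replicate 1. In WT survival the levels per kb were 3166 ± 1619 for Rag1 and 2351 ± 711 for Dntt (SD, n = 4), which do not differ beyond their spread, and Rag2 was lowest at 239 ± 173.

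**Figure D1:**
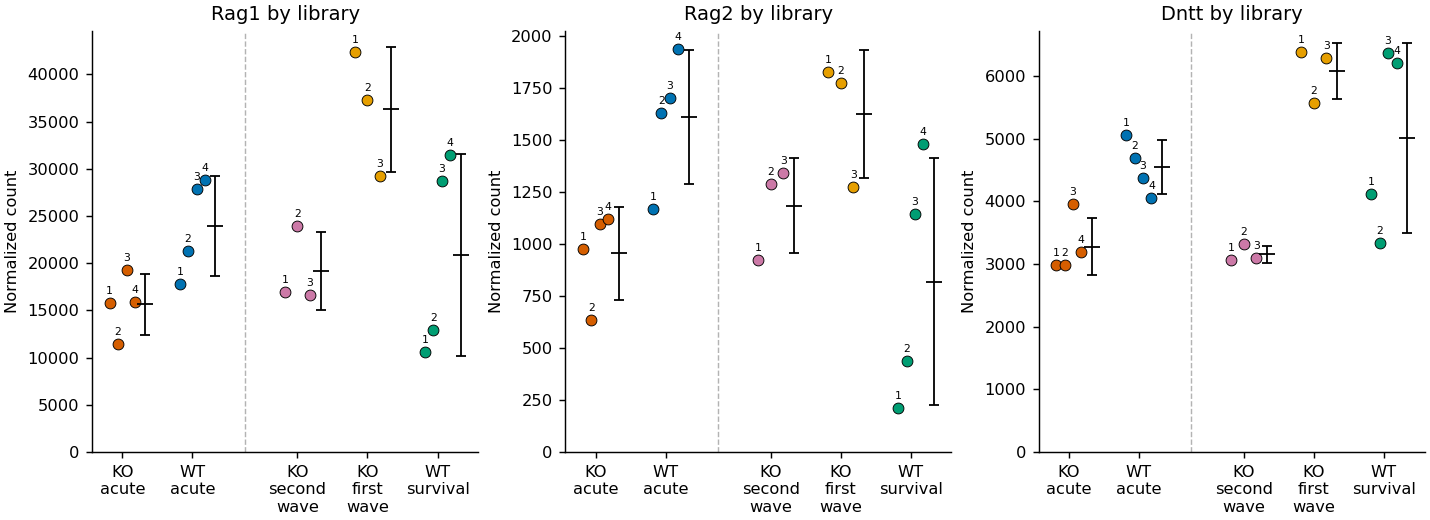
Normalized counts of Rag1, Rag2 and Dntt (vertical axes, linear and starting at 0) in every library, by group, with replicate numbers above the points and the mean and SD beside each group; the dashed line separates 2 tables that were normalized separately, so levels are not compared across it. Rag2 and Dntt of the 4 KO acute libraries lie below those of the 4 WT acute libraries, and WT survival replicates 1 and 2 lie far below replicates 3 and 4 for all 3 genes.

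In overt leukemia 48 h after treatment, all 3 recombination genes had lower means in KO acute than in WT acute libraries. No library was taken before treatment. Mean levels in KO acute libraries were 65.4% of WT for Rag1, 59.0% for Rag2 and 71.9% for Dntt, from the fitted log2 values. Among the 14184 genes tested in this comparison, 8.07% were called lower, 4.58% higher and 12.6% in either direction, so a call was not rare. The number called was 1794, against 1179 without WT replicate 2 and 983 without WT replicate 4. Of the 1794 calls, 1144 were lower and 650 higher, a split that became 718 and 1094 when libraries were scaled to equal totals and 832 and 746 after quantile normalization.

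Rag1, the catalytic subunit, had normalized counts of 15832, 11487, 19282 and 15940 in KO acute replicates 1 to 4, against 17834, 21317, 27879 and 28863 in WT acute replicates 1 to 4. The groups overlapped, because KO replicate 3 lay above WT replicate 1, and 3 of 4 KO libraries lay below all WT libraries. The log2 fold change was -0.61 ± 0.17 (SE, 95% interval -0.97 to -0.26, limma adjusted p = 0.0282). An exact two-sided permutation test over the 8 libraries gave p = 0.0571, where the smallest p possible was 0.0286.

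Rag2, the regulatory partner, had 974, 633, 1096 and 1119 in KO acute libraries, against 1168, 1631, 1700 and 1937 in WT acute libraries. Every KO library lay below every WT library, as 11% of all genes tested did, and KO replicate 2 was the lowest by far. The log2 fold change was -0.76 ± 0.19 (SE, 95% interval -1.17 to -0.35, limma adjusted p = 0.020), and the exact permutation p was 0.0286, the smallest possible.

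Dntt, the untemplated polymerase, had 2983, 2985, 3955 and 3190 in KO acute libraries, against 5063, 4690, 4372 and 4050 in WT acute libraries. The groups did not overlap, with KO replicate 3 close below WT replicate 4. The log2 fold change was -0.48 ± 0.12 (SE, 95% interval -0.72 to -0.23, limma adjusted p = 0.0166), and the exact permutation p was again 0.0286.

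These calls depended on scaling and on single libraries. Scaling to equal totals moved the median of all genes by 0.13 on the log2 scale and gave -0.49 for Rag1 (limma adjusted p = 0.0624), -0.64 for Rag2 (limma adjusted p = 0.0410) and -0.35 for Dntt (limma adjusted p = 0.0718). Relative to the median of all genes the members stood at -0.64, -0.79 and -0.51 for Rag1, Rag2 and Dntt, under the deposited scaling and under equal totals, and at -0.44, -0.63 and -0.31 after quantile normalization. The Rag1 call was lost without WT replicate 3 (-0.53, limma adjusted p = 0.0830), WT replicate 4 (-0.51, 0.0944), KO replicate 1 (-0.63, 0.0533) or KO replicate 2 (-0.47, 0.0634). The Rag2 call was lost without WT replicate 2 (-0.75, limma adjusted p = 0.0525), 3 (-0.73, 0.0550) or 4 (-0.67, 0.0720), and the Dntt call without WT replicate 2 (-0.46, 0.0511). With KO replicates 3 and 4 alone against all WT acute libraries, the differences were -0.42 for Rag1, -0.51 for Rag2 and -0.35 for Dntt (limma adjusted p = 0.148, 0.103 and 0.107). Those libraries differed in red-cell RNA: the 8 erythroid markers summed to 1562 and 2024 in KO replicates 3 and 4, 4482 and 9707 in KO replicates 1 and 2 and 5055 to 10382 in WT acute libraries. Of the erythroid markers 8 of 8 were below 0 (median log2 fold change -0.94, 1 called lower), and with KO replicates 3 and 4 alone the median was -1.96 with 6 called lower. The part of erythroid RNA in the result was not tested.

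Spleen RNA is a mixture, in which fewer cells of a type and less RNA per cell cannot be told apart. The 10 T-cell markers summed to 16710 to 20730 in KO acute libraries and 19179 to 20945 in WT acute libraries, with 1 marker called higher and 1 lower. Set against the mean log2 level of those markers in the same library, Rag1 was 0.58 lower in KO acute than in WT acute, Rag2 0.73 lower and Dntt 0.44 lower. The exact two-sided permutation p of these ratios was 0.0571 for Rag1 and Rag2 and 0.0286 for Dntt, and 0.190 for each after Benjamini-Hochberg adjustment over the 15 ratio tests. B-cell progenitors also use these genes. The 8 B-progenitor markers in the acute table summed to 270 to 526 in KO acute libraries and 147 to 349 in WT acute libraries, Vpreb1 stood at 0 to 8.84, and Igll1 and Vpreb2 were not in the table. All 4 KO libraries had a higher B-progenitor sum than 3 of the 4 WT libraries. KO acute replicates 1 and 2, with the higher neutrophil sums and mitochondrial shares, had the lowest Rag1, Rag2 and Dntt values of their group, and the part of these differences in the result was not tested.

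**Figure D2:**
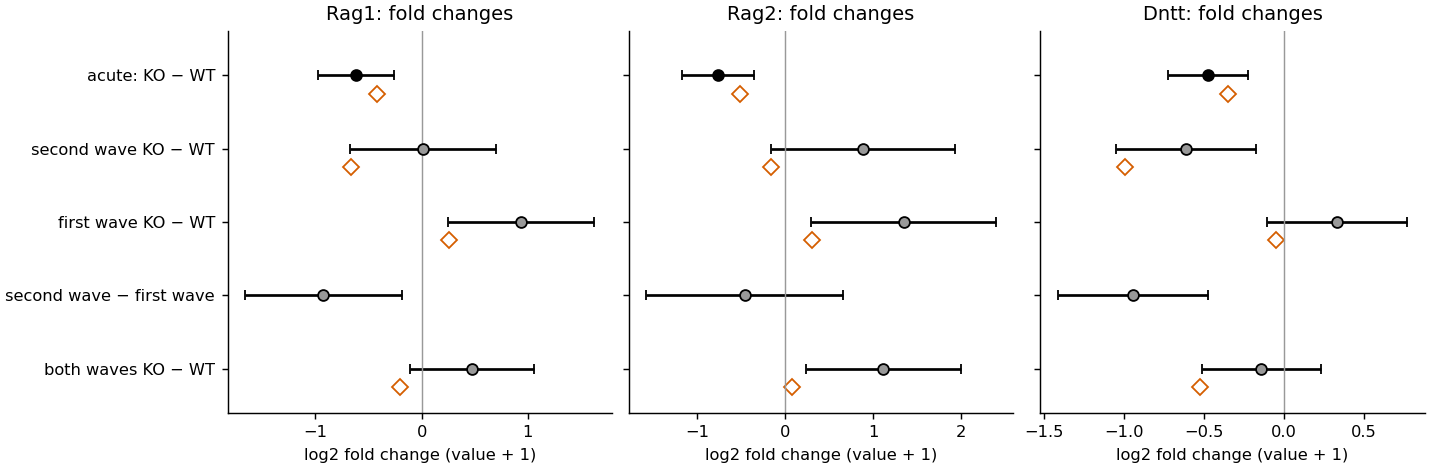
Log2 fold changes of log2(normalized count + 1) for the 3 genes in 5 comparisons (circles, with 95% intervals from limma); black circles passed the adjusted threshold of 0.05 and grey ones did not, and open diamonds give the value without KO acute replicates 1 and 2 or without WT survival replicates 1 and 2. The black circles are the 3 acute comparisons. The diamonds of Rag1 and Rag2 in the second wave lie on the other side of 0 from their circles, as do those of Dntt in the first wave and Rag1 with both waves.

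At the humane endpoint none of the 3 genes passed the adjusted threshold in any comparison of KO waves and WT. All of these comparisons share the 4 WT survival libraries, which were themselves split. WT survival replicates 1 to 4 had 10604, 12884, 28723 and 31477 for Rag1 and 4112, 3338, 6371 and 6206 for Dntt. Their Rag2 counts were 213, 437, 1145 and 1481. Replicates 1 and 2, those with the higher neutrophil sums, were the low libraries for every member, and the B-progenitor sums of 389 and 421 there were also above the 170 and 278 of replicates 3 and 4. The part of these other cell types in the split was not tested.

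In the second wave, Rag1 was at 16988, 23993 and 16612, between the low and the high pair of WT survival libraries. Rag2 was at 923, 1287 and 1342, and likewise lay within the WT range. Dntt was at 3059, 3314 and 3093, below all 4 WT libraries. Markers of B cells were also lower there. The B-progenitor sums were 68.3 to 152 in the second wave, against 170 to 421 in WT survival, and 4 of 4 tested markers were below 0 (median log2 fold change -2.43, 1 called lower), with a median of -1.48 against WT replicates 3 and 4 alone. Of the 6 mature B-cell markers, 5 were below 0 (median log2 fold change -0.89). The part of B-lineage RNA in the result was not tested. Against WT survival the log2 fold changes were 0.01 ± 0.32 for Rag1, 0.89 ± 0.49 for Rag2 and -0.61 ± 0.20 for Dntt (SE, limma adjusted p = 0.991, 0.462 and 0.240). The exact permutation p of Dntt was 0.0571, the smallest that 3 against 4 libraries allow, and 4.62% of genes tested lay below all WT libraries in the same way. Of the 14286 genes tested, 32 (0.224%) were called here, and 140 without WT replicate 3. Against WT replicates 3 and 4 alone, Dntt stood at -1.0 (limma adjusted p = 0.0177), Rag1 at -0.67 (limma adjusted p = 0.370) and Rag2 at -0.16 (limma adjusted p = 0.906), so the values of Rag1 and Rag2 changed sign. That fit called 14 of 14201 genes. The WT libraries left out were the lowest for every member, so the shift to lower values was set by that choice. The Rag1 value was also below 0 without second wave replicate 2 (-0.16), WT replicate 1 (-0.26) or WT replicate 2 (-0.17).

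In the first wave, Rag1 was at 42389, 37270 and 29233, and replicate 1 was the highest of all survival libraries. Rag2 was at 1829, 1774 and 1273, and Dntt was at 6382, 5571 and 6290. The first wave overlapped WT survival for every member, with 2 of 3 libraries above all WT libraries for Rag1 and Rag2 and 1 of 3 for Dntt. The log2 fold changes against WT survival were 0.94 ± 0.32 for Rag1, 1.35 ± 0.49 for Rag2 and 0.33 ± 0.20 for Dntt (SE, limma adjusted p = 0.617, 0.617 and 0.659). The limma test called 0% of 14286 genes in this comparison, and 1146 genes (8.02%) had an unadjusted p under 0.05. Against WT replicates 3 and 4 alone the values were 0.25 for Rag1, 0.30 for Rag2 and -0.05 for Dntt. B-progenitor markers were lower in the first wave too, with sums of 150 to 175. Against all WT survival libraries 4 of 4 tested markers were below 0 (median log2 fold change -0.75, none called). Against WT replicates 3 and 4 alone their median was 0.03. Of the 6 mature B-cell markers, 3 were below 0 (median log2 fold change -0.04).

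The second wave lay below the first wave in all 3 libraries for Rag1 and Dntt. Mean Rag1 was 19197 ± 4157 in the second wave and 36297 ± 6632 in the first wave (SD, n = 3 each), a log2 fold change of -0.92 ± 0.34 (SE, limma adjusted p = 0.647). Mean Dntt was 3155 ± 139 in the second wave and 6081 ± 444 in the first wave (SD, n = 3 each), a log2 fold change of -0.94 ± 0.22 (SE, limma adjusted p = 0.185). Rag2 overlapped between the waves, at a log2 fold change of -0.46 ± 0.52 (SE, limma adjusted p = 0.977). Both gaps had the exact permutation p of 0.1 that is the smallest for 3 against 3 libraries, and 7.29% of genes tested were lower without overlap. The limma test called 0.119% of genes. A fit on the 6 KO libraries alone called Dntt (-0.94, limma adjusted p = 0.0300).

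With both waves as 1 group, 6 KO libraries against the same 4 WT libraries gave 0.47 ± 0.27 for Rag1, 1.12 ± 0.41 for Rag2 and -0.14 ± 0.17 for Dntt (log2, SE, limma adjusted p = 0.472, 0.321 and 0.742). The limma test called 3 genes (0.021%), or 155 without WT replicate 3, and the KO libraries overlapped the WT libraries for every member. Without WT replicates 1 and 2, the Rag1 value was -0.21, on the other side of 0.

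Across libraries Rag1 and Rag2 moved together. Pearson's r of their log2 values was 0.96 over the 8 acute libraries (exact permutation p = 0.000496, 0.00298 after Benjamini-Hochberg adjustment over 12 correlations) and Spearman's rho was 0.93 (exact permutation p = 0.00223). It was 0.88 without the 2 libraries farthest from the Rag1 median, KO acute 2 and WT acute 4, and 0.91 with group means removed. Over the 10 survival libraries r was 0.87 (permutation p = 0.00034, adjusted 0.00298) and rho 0.84 (permutation p = 0.00388). It was 0.77 without WT survival replicates 1 and 2 and 0.94 with group means removed.

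Dntt was also set against each Rag gene, and differences between correlations were not tested. In acute libraries Rag1 and Dntt had an r of 0.64 (exact permutation p = 0.0930) that was 0.02 once group means were removed, and without WT acute replicate 1 it was 0.82 (exact permutation p = 0.0278). Rag2 and Dntt had an r of 0.67 (exact permutation p = 0.0781), which was -0.0026 with group means removed and 0.82 without that library (exact permutation p = 0.0254). In survival libraries the r of Rag1 and Dntt was 0.76 (permutation p = 0.0186, adjusted 0.0446), and it was 0.87 without WT replicates 1 and 2 and 0.85 with group means removed. The rho of that pair was 0.67 (permutation p = 0.0378, adjusted 0.0757). Rag2 and Dntt had an r of 0.40 there (permutation p = 0.285), which was 0.76 with group means removed. Libraries of one group share their genotype and treatment, so these values describe the libraries at hand.

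**Figure D3:**
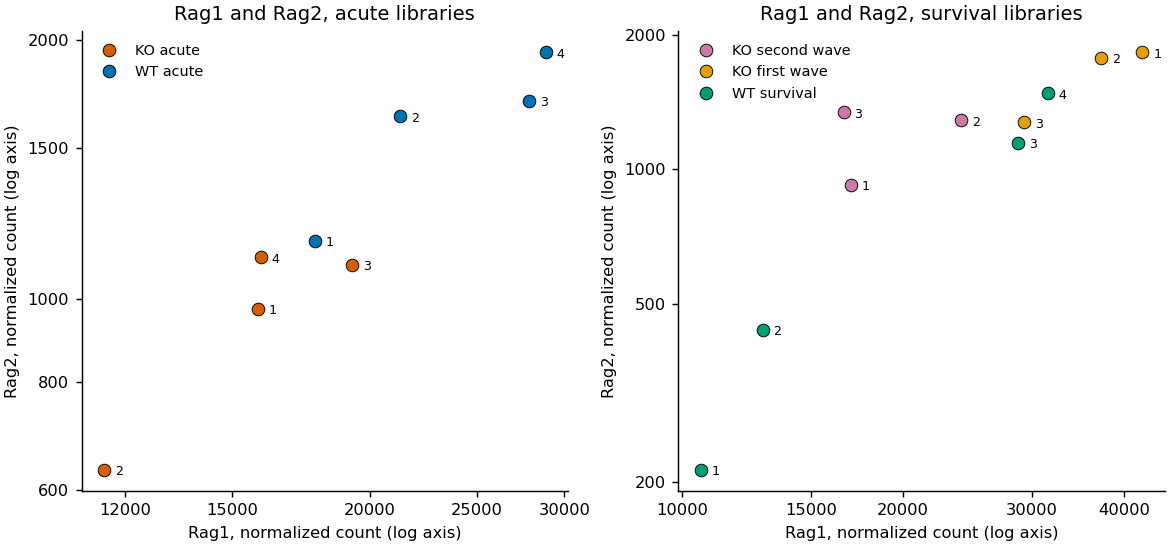
Rag1 (horizontal) against Rag2 (vertical) normalized counts on log axes for each acute library (left) and survival library (right), coloured by group and numbered by replicate. The points rise together in both panels, with r of 0.96 and 0.87, and KO second wave replicate 3 and WT survival replicate 1 lie at the lowest and the highest ratio of Rag1 to Rag2.

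The ratio of Rag1 to Rag2 normalized counts was 16.2, 18.2, 17.6 and 14.2 in KO acute libraries, against 15.3, 13.1, 16.4 and 14.9 in WT acute libraries, so the groups overlapped. The ratio was 18.4, 18.6 and 12.4 in the second wave and 23.2, 21.0 and 23.0 in the first wave, against 49.9, 29.5, 25.1 and 21.3 in WT survival. WT survival replicate 1, where Rag2 was lowest, had the ratio farthest from the others.

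The genes most like each member were ranked by the lower of the r values from the 2 tables, among 7803 genes. For Rag1 these were Ptcra, which encodes the alpha chain of the pre-T-cell receptor (0.95 over 8 acute and 0.96 over 10 survival libraries), Hdgfl3 (0.92 and 0.90) and Tmem179b (0.93 and 0.90). Rag2 ranked 6 in likeness to Rag1, and Dntt ranked 262. For Rag2 the leading genes were Zfp397 (0.96 and 0.97), Ifi203 (0.94 and 0.95) and Rnf41 (0.94 and 0.97). For Dntt they were Leprotl1 (0.90 and 0.86), Osgepl1 (0.85 and 0.87) and Igtp (0.84 and 0.85). B230118H07Rik, which overlaps the Rag genes, followed Rag1 in the acute libraries (r = 0.82) but not in the survival libraries (r = 0.03). The part of reads from shared bases in these values was not tested.

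The rest of the recombination pathway was read from lists of genes. Over 60 tested genes of 8 lists, the acute comparison called 2 higher and 13 lower. Of all genes tested, 4.58% were called higher and 8.07% lower. Hmgb1 and Hmgb2, the DNA-bending proteins that help the recombinase hold its target, were both lower in KO acute. Hmgb1 averaged 5369 ± 949 in KO acute and 7668 ± 918 in WT acute (log2 fold change -0.52, limma adjusted p = 0.0171), and Hmgb2 averaged 1223 ± 174 in KO acute and 1845 ± 334 in WT acute (-0.59, limma adjusted p = 0.0202; SD, n = 4 each). Without WT replicate 4 both calls were lost (-0.45 and -0.48, limma adjusted p = 0.0640 and 0.0723), and after quantile normalization they stood at -0.27 for Hmgb1 and -0.45 for Hmgb2 (limma adjusted p = 0.150 and 0.0520).

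Of the 8 core end-joining genes, 1 was called lower and none higher, with a median log2 fold change of -0.18 against 0.03 over all genes tested. A lower call was made for 8.07% of all genes tested, so 1 of 8 was near that share. Lig4, the ligase that seals the coding and signal joints, averaged 811 ± 150 in KO acute and 1223 ± 98.4 in WT acute (log2 fold change -0.61, limma adjusted p = 0.0148). Of the 10 break-response genes, 1 was called lower, likewise near the share over all genes, at a list median of 0.04. Atm, the kinase that senses the cut ends, averaged 2355 ± 377 in KO acute and 3426 ± 224 in WT acute (-0.55, limma adjusted p = 0.0111), and stood at -0.40 after quantile normalization (limma adjusted p = 0.0575). The other polymerases of the X family, relatives of Dntt that also fill ends during joining or repair, were not called. Their log2 fold changes were -0.15 ± 0.34 for Polm, 0.06 ± 0.55 for Poll and 0.04 ± 0.20 for Polb (SE, limma adjusted p = 0.814, 0.960 and 0.913).

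Rag2 protein is destroyed as cells enter S phase, after phosphorylation by cyclin A and Cdk2 and ubiquitination through Skp2. Of the 4 genes of that list, 3 were called lower in KO acute, against 8.07% of all genes tested. Ccna2 averaged 2332 ± 570 in KO acute and 4342 ± 459 in WT acute (log2 fold change -0.92, limma adjusted p = 0.00283). Cdk2 was lower by 0.68 (limma adjusted p = 0.00522) and Skp2 by 0.47 (limma adjusted p = 0.0322) on the log2 scale. The Skp2 call was lost on leaving out WT replicate 1, 2 or 4 or KO replicate 1, 2 or 4, at values from -0.47 to -0.39 (limma adjusted p of 0.0560 to 0.0893), and also after quantile normalization (-0.33, limma adjusted p = 0.115) and under equal totals (-0.34, limma adjusted p = 0.105).

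Of the 16 transcription factors linked to Rag expression or early T-cell identity, 4 were called lower and 1 higher, with a median log2 fold change of -0.15. Of all genes tested, 8.07% were called lower and 4.58% higher. Tcf7, a factor of T-cell specification, averaged 10308 ± 2353 in KO acute and 18946 ± 358 in WT acute (log2 fold change -0.91, limma adjusted p = 0.00158). Cbfb, the partner subunit of the RUNX factors, was lower by 0.79 (limma adjusted p = 0.00122). Id2, an inhibitor of E-box binding proteins, was lower by 0.77 (limma adjusted p = 0.00539). Myb, a factor of progenitors, was lower by 0.41 (limma adjusted p = 0.0253). That call was lost without WT replicate 2, 3 or 4 or KO replicate 1 or 2 (-0.42 to -0.34, limma adjusted p of 0.0535 to 0.0835). Myb stood at -0.09 after quantile normalization (limma adjusted p = 0.545) and at -0.28 under equal totals (limma adjusted p = 0.0889). Foxp1, which in mouse B-cell progenitors binds a Rag enhancer, was the gene called higher (0.64, limma adjusted p = 0.0169). Runx1, Ikzf1 (Ikaros) and the E-box binding factor Tcf3 were not called, at -0.22, -0.06 and -0.13 (limma adjusted p = 0.212, 0.733 and 0.516).

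**Figure D4:**
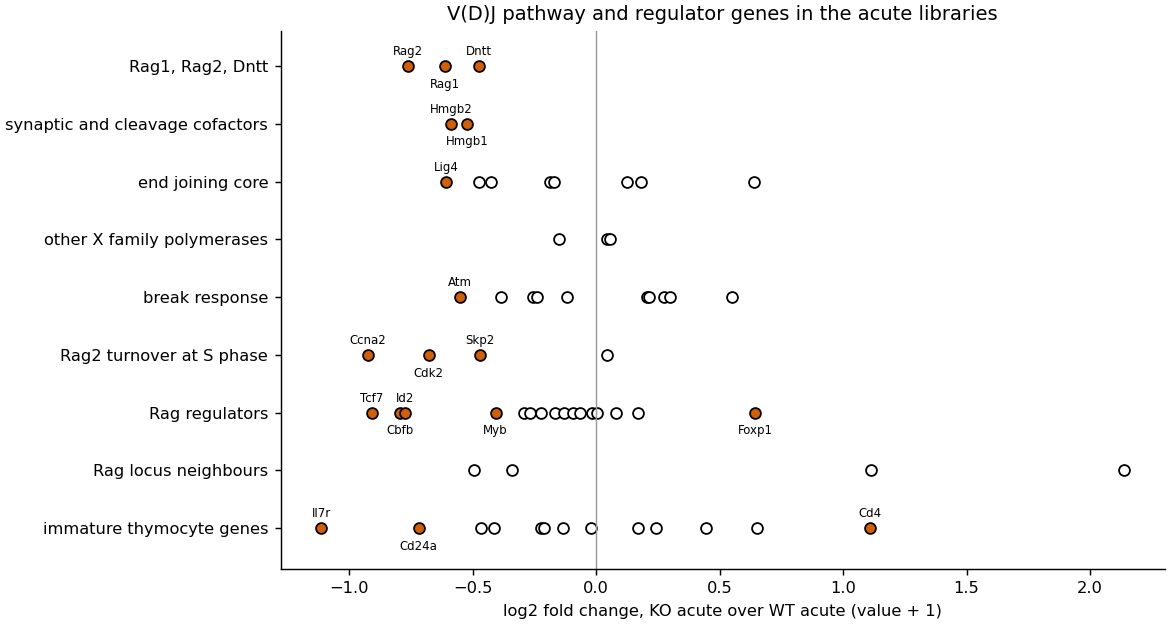
Log2 fold changes (KO acute over WT acute, horizontal) of Rag1, Rag2 and Dntt and of the measured genes of 8 lists, 1 point per gene; filled points passed limma's adjusted threshold of 0.05 and are named. Of the filled list genes, 13 lie left of 0 and 2 lie right of it, where 8.07% of all genes tested were called lower and 4.58% higher.

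Of the 13 genes of immature thymocytes, 1 was called higher and 2 lower, with a median of -0.14. The shares over all genes tested were 4.58% higher and 8.07% lower. Cd4, the coreceptor, averaged 433 ± 147 in KO acute and 194 ± 55.6 in WT acute (log2 fold change 1.11, limma adjusted p = 0.0220), and this call was lost without WT replicate 2 or 4 or KO replicate 1, 2 or 3 (0.96 to 1.06, limma adjusted p of 0.0546 to 0.0670). Il7r, the interleukin receptor of early thymocytes, averaged 737 ± 230 in KO acute and 1544 ± 156 in WT acute (-1.11, limma adjusted p = 0.00308). Cd24a, a surface protein of immature thymocytes, was lower by 0.72 (limma adjusted p = 0.00681).

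Neighbours of the Rag locus did not pass the threshold. Their log2 fold changes in KO acute were -0.34 ± 0.13 for Traf6, -0.50 ± 0.31 for B230118H07Rik, 1.11 ± 0.48 for Commd9 and 2.14 ± 1.04 for Prr5l (SE, limma adjusted p = 0.105, 0.326, 0.144 and 0.198). Traf6 encodes a ubiquitin ligase of receptor signalling. B230118H07Rik stood at 0.11 without KO replicates 1 and 2, and its values may include reads from the bases shared with the Rag genes.

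Without KO acute replicates 1 and 2, none of the 60 list genes was called higher. The calls that were lower were then 1 of 2 cofactors, 0 of 8 end-joining genes, 1 of 10 break-response genes, 2 of 4 genes of Rag2 turnover, 3 of 16 transcription factors and 2 of 13 thymocyte genes. Of the 14046 genes tested in that fit, 4.78% were called lower and 1.65% higher. These lists were run without those libraries after the data had been seen.

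In the survival experiment the limma test called none of the 60 list genes in any of the 4 comparisons. The numbers with an unadjusted p under 0.05 were 11 in the second wave against WT survival, 10 in the first wave against WT survival, 5 between the waves and 10 with both waves against WT survival. Of all genes tested, 13%, 8.02%, 6.34% and 12.9% had such a p in the same comparisons. The transcription factors had a median log2 fold change of 0.29 in the second wave and 0.42 in the first wave against WT survival, with 13 and 14 of 16 genes above 0, and medians of 0.11 and 0.13 without WT replicates 1 and 2. For the thymocyte genes the medians were 0.17 and 0.23, and -0.23 and 0.04 without those libraries. The median of all genes tested was -0.01 and 0.01.

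The list genes with the smallest p in each survival comparison did not pass the threshold after adjustment. In the second wave they were Cbfb (log2 fold change 0.80, limma adjusted p = 0.165) and Cdkn1b, an inhibitor of Cdk2 (-0.61, limma adjusted p = 0.168). In the first wave they were Atm (0.76, limma adjusted p = 0.617) and Bcl11b, a factor of T-cell commitment (0.92, limma adjusted p = 0.617). Between the waves they were Cdkn1b (-0.71, limma adjusted p = 0.238) and the E-box binding factor Tcf12 (-0.43, limma adjusted p = 0.477). With both waves together they were Atm (0.76, limma adjusted p = 0.251) and Cbfb (0.69, limma adjusted p = 0.251). Cbfb was called without WT replicate 3, at 1.03 in the second wave (limma adjusted p = 0.0122) and 0.92 with both waves (limma adjusted p = 0.0288). Of the X family polymerases, Polm and Poll stayed low and Polb stood higher. Polm averaged 59.8 ± 37.4 in the second wave, 56.6 ± 15.3 in the first wave and 50.6 ± 20.7 in WT survival, and Polb averaged 254 ± 12.8, 282 ± 29.4 and 194 ± 48.3 in those groups (SD). Poll was at 0 to 48.8 across these libraries.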

How the data were processed

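RNA of 18 libraries was measured in 5 groups named by the sample titles. The authors deposited an acute and a survival table of gene values in the unit signal: gene counts from kallisto 0.44.0 (GRCm38), scaled by DESeq size factors, per the submitters' processing notes. Libraries were strand-specific per the labels' protocols. The DESeq version, the annotation, the strand setting of the counting and the gene filter were likewise not given in the sources used here. Each table has its own normalization, and every test stayed within one table. Between 37.2% and 63.4% of values under 8 were whole multiples, to within 0.02, of the estimated value of 1 read, too few to recover reads, and no count model was used. Normalized totals were 7.07 to 10.39 M per library, and the number of libraries limits the precision.

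Genes with a mean of at least 10 were tested as log2(value + 1) with limma 3.58.1 in R 4.3.3 (lmFit and eBayes with trend), with Benjamini-Hochberg adjustment over all genes of the table and a threshold of 0.05. Fold changes on this scale understate those of low genes. The survival fit held all 10 libraries. Each member also had an exact two-sided permutation test per comparison, and correlations with exact permutations (8 libraries) or 100000 resamples (10 libraries). On simulated data with known changes, the acute test recovered 24% of genes changed 1.5-fold and 68% of those changed 2-fold over 14184 genes. For the second wave against WT survival it recovered 14% and 62%, for the first wave against WT survival 6% and 66%, between the waves 6% and 48%, and for both waves against WT survival 28% and 78%, over 14286 genes each. These shares are of the changed genes alone, a small set of the genes simulated, so they are imprecise. The simulation set the spread from the mean of a gene alone and had no split within a group. Rag2 averaged 819 ± 594 in WT survival (SD, n = 4), so these shares do not hold for the members there.

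Coordinates and lengths are from GENCODE M21, which holds every symbol of both tables. All 3 members matched the RefSeq promoter table. The members and gene lists were chosen with earlier results of these data known. Named genes were the members, Acly, list genes past the threshold, Rag neighbours and X family polymerases, and the 3 genes most like each member with a mean of at least 100, without predicted-gene, Rik or receptor segment symbols. Where a list had no call, the rule gave its 2 genes of smallest p, and of these only the 2 smallest over all lists are printed per survival comparison. One thymocyte gene is not reported here and was left out of its list. Runx1, Ikzf1, Tcf3 and marker genes fall outside that rule and were chosen after their values were seen. Alternatives were other pseudocounts (0.5 and 5), no filter or a mean of at least 50, quantile normalization, equal totals, eBayes without trend or robust, a replicate block, the compared groups only and leaving out libraries. The labels do not say whether replicate numbers pair samples, and no pairing was used in the main fits. No pair of libraries of a group was a duplicate, with r between 0.90 and 0.95 over tested genes.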

Additional observations from a re-analysis of the deposited data

Results flagged for a closer look

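Rag1, Rag2 and Dntt drew attention because every library of one KO group lay on one side of its WT mean and every library of another lay on the other side. All 4 KO acute libraries lay below the WT acute mean for each gene. All 3 first wave libraries lay above the WT survival mean, at a mean log2 difference of 0.94 for Rag1, 1.35 for Rag2 and 0.33 for Dntt, and so did the second wave for Rag2, at 0.89. These differences between the acute and the survival experiment were not tested, because the tables were normalized separately, and the WT survival mean includes the low replicates 1 and 2. For Dntt the second wave also lay below and the first wave above the WT survival mean. The difference between the waves was -0.94 on the log2 scale (limma adjusted p = 0.185), and the exact permutation p was 0.1, which 3 against 3 libraries cannot go below. No library of a group of 4 lay apart from the others by Dixon's test in 21 sets of values, where chance alone gives about 1 in 20. That test looks for 1 library apart, so it cannot flag a split of 2 against 2 such as that of WT survival.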

How the results depend on the processing

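The acute differences of Rag1, Rag2 and Dntt, lower in KO than in WT, kept their direction under every alternative run and lost their call under several. For Rag1 these were quantile normalization (-0.43), equal totals (-0.49), eBayes without trend or robust (-0.61 in both) and KO replicates 3 and 4 alone (-0.42). For Dntt they were quantile normalization (-0.30), equal totals (-0.35), eBayes without trend (-0.48) and KO replicates 3 and 4 alone (-0.35), and for Rag2 eBayes without trend (-0.76) and KO replicates 3 and 4 alone (-0.51). Leaving out 1 library gave -0.75 to -0.47 for Rag1, -0.91 to -0.58 for Rag2 and -0.57 to -0.42 for Dntt. The Dntt ratio to T-cell markers was -0.36 after quantile normalization, -0.35 with KO replicates 3 and 4 alone and -0.51 to -0.39 without 1 library, where 4 against 3 libraries cannot reach the threshold.

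With WT survival replicates 3 and 4 alone, signs turned for Dntt in the first wave (-0.0509), Rag1 (-0.67) and Rag2 (-0.16) in the second wave and Rag1 with both waves (-0.21), as did the Rag1 ratio to T-cell markers (-0.48 in the second wave, -0.0765 with both waves). Dntt in the second wave was then called (-1.0), but leaving out the low WT replicates lowers the member values by construction. A fit on the KO libraries alone called Dntt between the waves (-0.94). Without 1 library, Rag1 in the second wave gave -0.26 to 0.26 and its ratio -0.18 to 0.32. The Rag2 ratio with both waves gave 0.63 to 1.53, reaching an exact permutation p of 0.0238 without WT replicate 4. The acute correlations with Dntt gave 0.48 to 0.82 for Rag1 and 0.52 to 0.82 for Rag2. Polb gave -0.10 to 0.12 without 1 library and -0.15 with KO replicates 3 and 4, Poll gave -0.11 to 0.24 and -0.24 after quantile normalization, Polm gave -0.28 to 0.12, and B230118H07Rik gave 0.11 with KO replicates 3 and 4. Over the results that answer a comparison, 527 alternative values kept their direction and their side of the threshold, 29 lost a call, 5 gained one and 12 changed sign. The 527 include survival results of the members, which had no call to lose. The cause of these changes between settings was not tested.

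Counts of called genes ranged from 693 (eBayes without trend) to 1916 around 1794 in the acute comparison, with 983 without WT replicate 4, 1179 without WT replicate 2 and 903 with KO replicates 3 and 4. They ranged from 13 to 140 around 32 for the second wave, 0 to 3 around 0 for the first wave, 1 to 38 around 17 between the waves and 2 to 155 around 3 for both waves, the 140 and 155 being without WT replicate 3. Same-numbered deviations correlated at -0.03 to 0.09. In 5 of 26 cases a library correlated best with its own number, counting each library once per pair of groups. The values thus gave no sign that replicate numbers pair samples, which groups this small cannot exclude. With the replicate block, Rag1, Rag2 and Dntt stayed called in acute libraries (limma adjusted p = 0.0163, 0.0205 and 0.0384), no member was called in survival libraries, the Skp2 call was lost (0.0635), and the counts were 1391 in the acute comparison and 2 between the waves. Small groups and an estimated 6.08 to 12.7 M reads limit these comparisons, and KO against WT cannot be told apart from tamoxifen against corn oil.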
